A study of Saccharomyces cerevisiae with 4 samples.

Results

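The 10 genes described here encode the translation elongation factors of budding yeast (Saccharomyces cerevisiae): TEF1 and TEF2 (eEF1A), EFB1, CAM1 and TEF4 (eEF1B), EFT1 and EFT2 (eEF2), YEF3 (eEF3), and HYP2 and ANB1 (eIF5A). They were taken by symbol, with earlier results of these data known, and all 10 of them are printed on both array platforms, among 5583 named genes in all. The series sets RNA precipitated with zz-tagged Mex67, the yeast receptor for messenger RNA export from the nucleus, against RNA precipitated with only the zz tag, which comes from protein A and binds immunoglobulin. Both precipitates were hybridised to the same array, and the 4 arrays form 1 group. Replicate 1 was made on a platform of 7680 spots, with slide 1 and scan 1 in its title, and replicates 2, 3 and 4 on a second platform of 12800 spots, with slide 5 and scan 3, slide 3 and scan 3, and slide 3 and scan 3. Each title also carries a date of its own, so replicates 3 and 4 are not shown to share a slide. The strain, its growth, the promoter of the tagged protein and the source of each precipitate do not stand in the labels. Separate cultures or precipitations are not stated, so a p-value here covers the spread between the arrays alone, and that spread may be technical.

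During elongation eEF1A brings aminoacyl-tRNA to the ribosome as a complex with GTP, and eEF1B recharges it by exchanging GDP for GTP. The translocase eEF2 then moves the tRNAs and the messenger along, eEF3, an ATPase found in fungi, helps the spent tRNA to leave, and eIF5A, the protein that carries the modified residue hypusine, aids peptide bond formation where the ribosome stalls. In growing yeast most of these messengers are among the most abundant of the cell. TEF1 and TEF2 encode the same protein and so do EFT1 and EFT2, and the coding sequences within each pair are nearly the same, so that a probe for one gene may bind the RNA of the other.

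All values below are log2 ratios of the 2 channels, averaged over the spots of a gene, minus the median over the genes of the array, so that 0 is the median gene. The zzMex67 precipitate is likely the numerator, since it stands first in the titles and in channel 1 of replicates 1, 3 and 4, but no file settles this, so ratios are only called higher or lower. On replicate 2 that precipitate is labelled as channel 2, so the sign was turned, and every value of that array changes sign if it is left as deposited.

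On each array most of the measured elongation factor messengers lay above the median gene. All 10 members had a value on replicate 1, where 79% of printed genes did. On replicate 2 the count was 4 of 10 against 9.46% of genes, on replicate 3 it was 6 of 10 against 41.2%, and on replicate 4 it was 6 of 10 against 43.7%. The labels do not say why spots lack a value. A ratio above the array median, where 50% of genes lie, was seen for 9 of 10, 3 of 4, 6 of 6 and 5 of 6 measured members on replicates 1 to 4. A ratio at least 2-fold above it was seen for 7 of 10 members on replicate 1, against 26% of all measured genes. It was seen for 3 of 4 on replicate 2, against 27.7%, for 4 of 6 on replicate 3, against 28.9%, and for 3 of 6 on replicate 4, against 22.5%. A ratio at least 2-fold below the median was seen for 1 member on 1 array, EFB1 on replicate 4, where 17.4% of genes were that low, beside 0 members on replicates 1, 2 and 3, where 21.1%, 29.2% and 21.9% of genes were. The member medians were 1.94, 1.29, 1.53 and 1.20 on replicates 1 to 4, beside 0 for all genes of each array by construction. With each near-identical pair averaged the median on replicate 4 was 0.38, and with runs of 400 neighbouring spots centred that on replicate 2 was 2.19. The SDs over members were 1.45, 0.85, 0.78 and 2.29 on these arrays, beside 1.68, 1.76, 1.83 and 1.44 over all measured genes. The members were thus more spread than all genes on replicate 4 alone. Since each pair shares sequence, its genes do not add independent values to these counts.

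**Figure D1:**
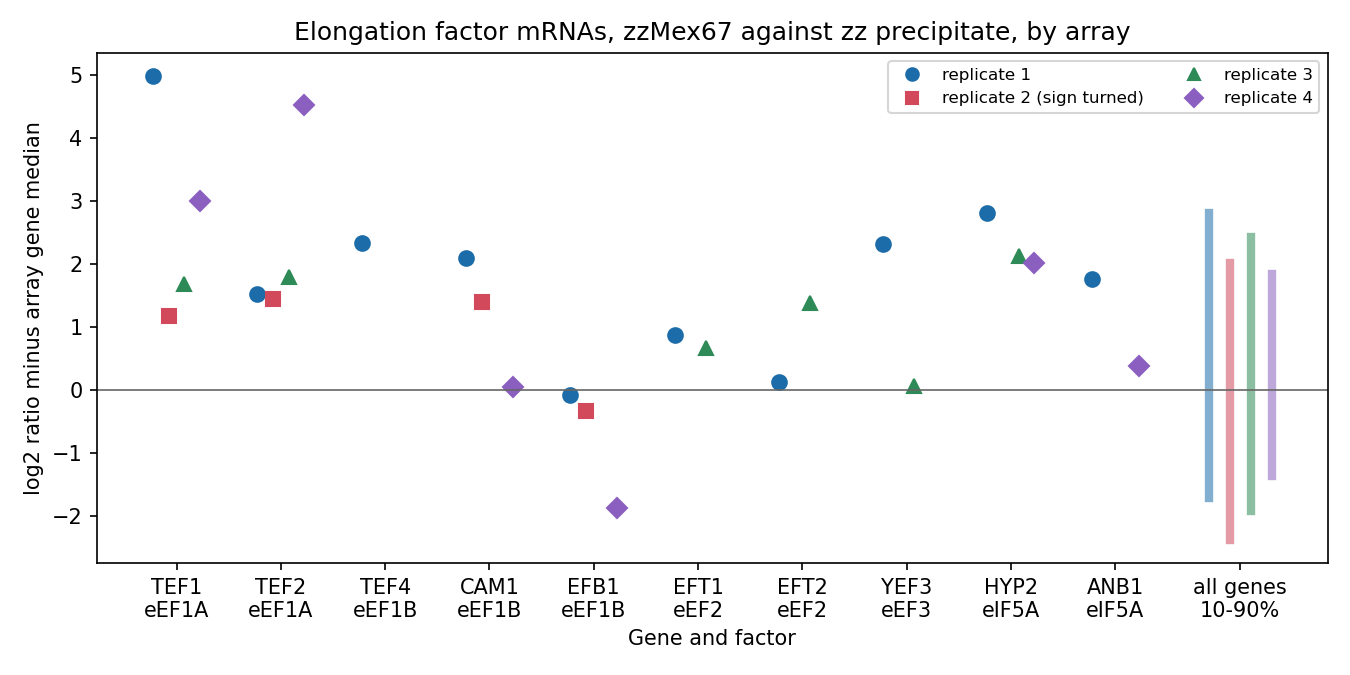
Log2 ratio minus the array's gene median (vertical axis) for each of the 10 genes (horizontal axis), with 1 point per array, coloured and shaped by replicate. The bars at the right span the 10th to the 90th percentile of all measured genes on each array. TEF1 on replicate 1 (4.98) and TEF2 on replicate 4 (4.53) stand highest, and EFB1 on replicate 4 (-1.87) lowest.

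The eEF1A genes were the only members measured on all 4 arrays, and their ratios were at least 2-fold above the median on each, which for replicate 2 holds only with the sign turned (-1.17 and -1.44 as deposited). TEF1 (YPR080W) had 4.98, 1.17, 1.68 and 3.01 on replicates 1 to 4. TEF2 (YBR118W) had 1.53, 1.44, 1.81 and 4.53. TEF1 was highest on replicate 1, where it ranked 11 among 4409 genes, and TEF2 on replicate 4, where it ranked 3 among 2421. On the other arrays they were less extreme, at ranks such as 427 (TEF1) and 394 (TEF2) among 2280 genes on replicate 3. Of the 119 genes measured on all 4 arrays, 5 were at least 2-fold higher on every array (4.2%), and TEF1 and TEF2 were 2 of them.

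Tested on the 3 arrays of the second platform, neither eEF1A gene passed. The mean was 1.96 ± 0.95 for TEF1 and 2.59 ± 1.69 for TEF2 (SD, n = 3, limma, adjusted p = 0.6998 for both). No call was made among 135 genes (0 calls, 0%), and the unadjusted limma p was below 0.05 for 6 of them (4.44%), of which TEF2 was one. The 135 genes measured on all 3 arrays had a median of means of 0.64, so part of each mean is shared with the genes tested beside it. TEF2 depended on replicate 4, without which its mean was 1.62. With replicate 2 as deposited the means of TEF1 and TEF2 were 1.17 and 1.63. On replicates 1, 3 and 4, which joins the platforms by gene, TEF1 had a mean of 3.23 ± 1.66 and TEF2 one of 2.62 ± 1.66 (SD, n = 3, limma, adjusted p = 0.386 for both). There 0 of 725 genes passed limma (0%) and 65 had an unadjusted p below 0.05 (8.97%), while the 725 genes had a median of means of 0.32. Both eEF1A genes and HYP2 were among the 65. In this combination TEF2 had a mean of 1.67 without replicate 4. On all 4 arrays the means were 2.71 ± 1.70 for TEF1 and 2.33 ± 1.48 for TEF2 (SD, n = 4, limma, adjusted p = 0.379 for both), with 0 of 119 genes called (0%), 13 at an unadjusted limma p below 0.05 and a median of means of 0.87.

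The TEF1 and TEF2 values, for genes with the same product, differed most on the arrays where one of them was highest. TEF2 minus TEF1 was -3.46 on replicate 1, 0.27 on replicate 2, 0.12 on replicate 3 and 1.51 on replicate 4. TEF2 was thus lower on 1 array and higher on the other three. The mean difference was -0.39 ± 2.14 (SD, n = 4, exact two-sided sign-flip permutation test, p = 1, adjusted p = 1 over 2 pairs). With 4 arrays this test cannot reach 0.05, so it does not show that the genes act alike.

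A yardstick for such differences is how far apart 2 spots of the same gene lie on the same array. The median absolute difference between such spots was 0.81 over 693 genes on replicate 1, and 0.53, 0.48 and 0.41 over 356, 1770 and 1449 genes on replicates 2, 3 and 4. On the second platform these spots had consecutive numbers for 100% of the genes, and on replicate 1 for 0%. For the second platform the yardstick thus leaves out differences between spots far apart in number. A small share there does not show that the genes differ. In the pairs compared on replicates 2, 3 and 4 each gene is a mean of 2 spots, while the yardstick sets single spots against each other. Their shares are therefore not like for like. The difference of 3.46 on replicate 1 rests on 1 spot of each gene and was exceeded by 2.02% of the same-gene differences, and that of 1.51 on replicate 4 by 5.18%. On replicates 2 and 3 the differences between TEF1 and TEF2 were exceeded by 67.7% and 82.4%. Single spots told the same: on replicate 4 the TEF1 spots (2.92 and 3.10) lay below both TEF2 spots (4.37 and 4.68). On replicate 3 the spots overlapped, with 1.46 and 1.90 for TEF1 and 1.72 and 1.89 for TEF2. On replicate 2 the TEF2 spots (0.85 and 2.03) enclosed those of TEF1 (1.13 and 1.22).

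**Figure D2:**
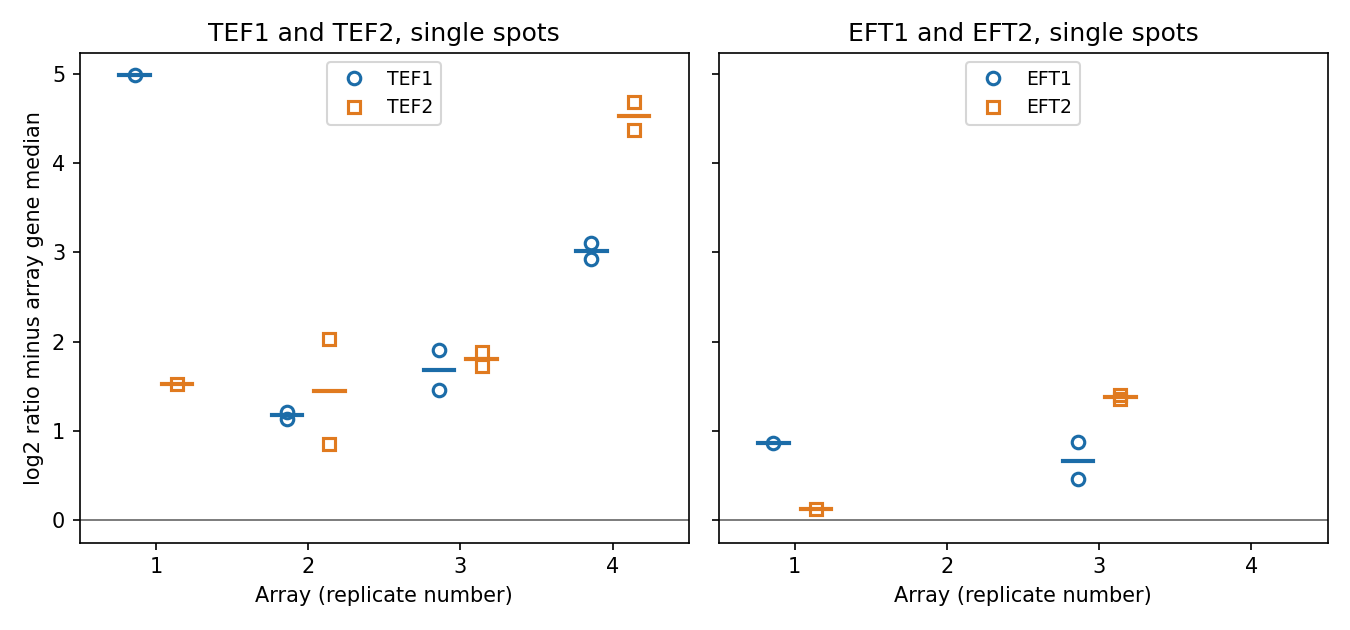
Single spots (open symbols) and their mean (line) for TEF1 and TEF2 at the left and EFT1 and EFT2 at the right, as log2 ratio minus the array's gene median (vertical axis) on each array (horizontal axis). The TEF1 and TEF2 spots are apart on replicates 1 and 4 and overlap on replicates 2 and 3. EFT1 and EFT2 have values on replicates 1 and 3 only, and no value on replicates 2 and 4.

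The differences changed when spots were centred in runs of 400 by spot number. Neighbouring here means close in spot number, and the place of the spots on the array was not used. Medians of runs of 400 neighbouring spots ranged from -1.79 to 1.18 on replicate 1, from -3.31 to 1.59 on replicate 2, from -2.00 to 2.21 on replicate 3 and from -0.72 to 1.71 on replicate 4. TEF1 on replicate 4 lay in the highest of these runs (1.71) and TEF2 in a run at -0.44, so centring widened their gap there. TEF2 on replicate 1 lay in a run at -1.10. Many spots lack a value, so some run medians rest on few spots. The runs of TEF1 and TEF2 held 289 and 224 measured spots on replicate 1, and 35 and 30 on replicate 2. They held 77 and 350 on replicate 3, and 379 and 84 on replicate 4. The fewest for any member were 9, for CAM1 on replicate 2. With each run centred on its own median, TEF2 minus TEF1 was -1.97, -0.65, -0.65 and 3.67 on replicates 1 to 4, with a mean of 0.10, so the sign of the mean turned and TEF2 was the higher gene on replicate 4 alone. In this setting TEF1 had 4.60, 2.70, 2.78 and 1.37, and TEF2 had 2.62, 2.05, 2.13 and 5.04. Both genes stayed above the median on every array either way. The part of spot order in the differences was not tested further.

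**Figure D3:**
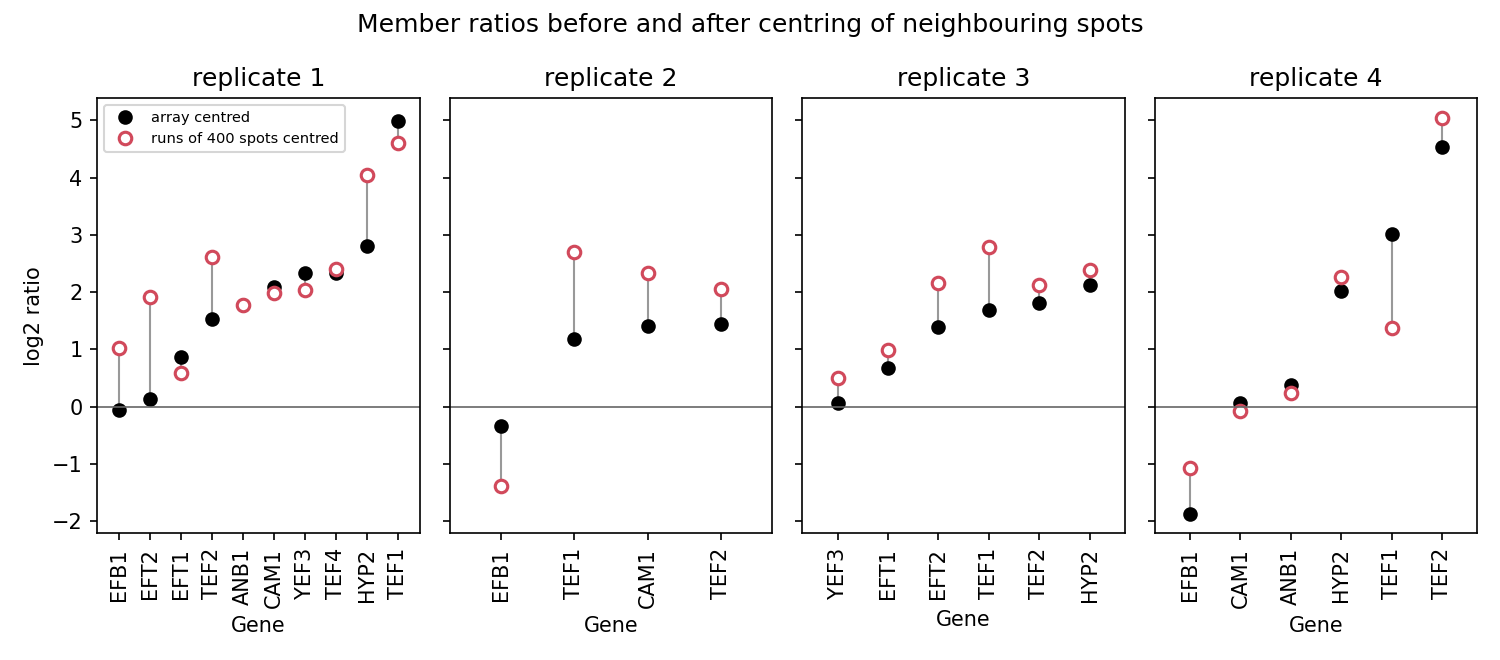
Log2 ratios (vertical axis) of each measured member (horizontal axis, ordered by ratio) on each array, centred on the array median (filled) and with runs of 400 neighbouring spots centred (open). The grey lines join the values of a gene, and TEF1 on replicate 4 (3.01 to 1.37) and EFT2 on replicate 1 (0.13 to 1.91) are among the genes that moved most.

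The eEF1B genes split. EFB1 encodes the subunit that catalyses nucleotide exchange, while CAM1 and TEF4 each encode the gamma subunit. EFB1 (YAL003W) had -0.07, -0.33 and -1.87 on replicates 1, 2 and 4 and no value on replicate 3. It was the lowest of the measured members on each of these 3 arrays, and would be the highest on replicate 2 with the sign as deposited. Its value on replicate 4 rests on 1 spot, and its 2 spots on replicate 2 were far apart, at 0.45 and -1.12. With runs of 400 spots centred it had 1.03, -1.38 and -1.07, so on replicate 1 it lay above the median and above EFT1 (0.60). CAM1 (YPL048W) had 2.10 on replicate 1, 1.40 on replicate 2, from 1 spot, and 0.06 on replicate 4. CAM1 was thus near the median on replicate 4, where its spots had -0.28 and 0.39. TEF4 (YKL081W) had a value on replicate 1 alone, 2.33, the mean of spots at 2.91 and 1.75. TEF4 and CAM1 differed there by 0.24, which 85.1% of the same-gene differences exceeded. EFB1 and TEF4 both carry an intron, and had -0.07 and 2.33 on replicate 1. Whether an intron bears on the ratio was not tested.

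The eEF2 genes were measured on replicates 1 and 3. EFT1 (YOR133W) had 0.87 and 0.67. EFT2 (YDR385W) had 0.13 and 1.38. EFT2 minus EFT1 was therefore -0.74 on replicate 1 and 0.71 on replicate 3, with a mean of -0.01 ± 1.03 (SD, n = 2, exact two-sided sign-flip permutation test, p = 1, adjusted p = 1 over 2 pairs). With 2 arrays the test cannot go below 0.5. Of the same-gene spot differences, 53.2% on replicate 1 and 36.4% on replicate 3 were larger. On replicate 3 the EFT1 spots (0.46 and 0.87) lay below both EFT2 spots (1.36 and 1.40). With runs of 400 spots centred, EFT2 was the higher gene on both arrays, by 1.32 and 1.17, with a mean of 1.24. The run of EFT2 on replicate 3 held only 27 spots with a value. EFT2 on replicate 1 lay in the run with the lowest median of that array (-1.79), and the sign of the pair's difference there turned with that run.

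The eEF3 gene YEF3 (YLR249W) had 2.33 on replicate 1 and 0.07 on replicate 3. Its spots on replicate 3 were at -0.06 and 0.20, on either side of the median gene. It was 5.02-fold above the median on one platform and at the median on the other.

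Of the 3 members measured on replicates 1, 3 and 4, the eIF5A gene HYP2 had the smallest spread. In S. cerevisiae HYP2 supplies the protein in the presence of oxygen, and ANB1 is the copy that is used when oxygen is low. HYP2 (YEL034W) had 2.81, 2.13 and 2.01 on replicates 1, 3 and 4, which is at least 4.04-fold above the median gene, and no value on replicate 2. Its mean was 2.32 ± 0.43 (SD, n = 3, limma, adjusted p = 0.388), at an unadjusted p = 0.0160 from limma. Of the 725 genes on these arrays, 7.17% had a smaller SD, where the median SD was 1.37, and 3 had a larger value on their lowest array. HYP2 was singled out for this after its values were seen. Its 2 spots had 2.17 and 2.09 on replicate 3 and 1.92 and 2.10 on replicate 4. With runs of 400 spots centred its values were 4.04, 2.38 and 2.26, so the value on replicate 1 was then the highest by a wider gap.

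ANB1 (YJR047C) had 1.77 on replicate 1 and 0.38 on replicate 4. It was below HYP2 on both, by 1.03 and 1.63, which 38.2% and 4.14% of the same-gene spot differences exceeded. On replicate 4 both ANB1 spots (0.31 and 0.46) lay below both HYP2 spots. With runs centred ANB1 was below HYP2 by 2.26 and 2.02. The difference within this pair was not tested. Whether a probe for one of these genes also binds the RNA of the other was not checked.

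Set in order on replicate 1, the array with all 10 members, TEF1 was followed by HYP2, TEF4, YEF3, CAM1, ANB1, TEF2, EFT1, EFT2 and EFB1. Of the 9 gaps between neighbours in this order, 1 exceeded the median same-gene spot difference, that between TEF1 and HYP2 (2.18). On replicate 2 the order was TEF2, CAM1, TEF1 and EFB1, and the last gap of 3 exceeded it (1.51). On replicate 3 HYP2, TEF2, TEF1, EFT2, EFT1 and YEF3 followed each other, with 2 of 5 gaps above it. On replicate 4 the order was TEF2, TEF1, HYP2, ANB1, CAM1 and EFB1, with 4 of 5 gaps above it. The same-gene spots on replicates 2, 3 and 4 have consecutive numbers, so a gap above their median difference does not show that the genes differ. Gaps in a sorted list also shrink as more genes are listed, so these counts cannot be compared between arrays. Across replicates 1, 3 and 4, 3 members had a value on each array, TEF1, TEF2 and HYP2, and each of them exceeded the array median 3 times out of 3, as did 19.2% of the 725 genes. They were also at least 2-fold higher on every array, against 4.83%. None of the 3 passed limma over all 725 genes.

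Among the genes measured on all 4 arrays, those closest to TEF1 in pattern were not those closest to TEF2. Closeness was the root mean square difference over the 4 arrays, and it is a description of 119 genes. The genes closest to TEF1 were RPL20B (YOR312C), a ribosomal protein gene, at 0.54, TDH2 (YJR009C), a glyceraldehyde-3-phosphate dehydrogenase gene, at 0.70, and RPP0 (YLR340W), a ribosomal stalk protein gene, at 0.91. RPL20B had 4.35, 0.90, 1.83 and 2.21 on replicates 1 to 4. The genes closest to TEF2 were MOR1 (YDR366C) at 0.91, the asparaginase gene ASP3-1 (YLR155C) at 0.91 and the RNA helicase gene DBP2 (YNL112W) at 1.01. DBP2 shared with TEF2 a high value on replicate 4 (4.91). TEF1 and TEF2 were at 1.89 from each other, which was rank 28 of the other genes for each.

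Other genes of translation were mixed. Of 29 genes for paralogs, modifying enzymes and partners of the elongation factors, 25, 2, 9 and 13 had a value on replicates 1 to 4, with medians of -0.16, 0.09, -0.24 and -0.12. Of these, 3 were measured on replicates 1, 3 and 4, and 0 passed limma, as did 0% of all 725 genes. On all 3 arrays 0 of them lay above the median, against 19.2% of the 725 genes, which 3 genes are too few to tell apart. These partner genes were NEW1, a paralog of the eEF3 gene, at -0.98, 4.27 and 1.60, and the diphthamide synthesis genes DPH5, at 1.47, 3.48 and -0.92, and DPH1, at 0.32, -0.24 and -0.54. The enzymes of DPH5 and DPH1 act on eEF2, where they help to turn a histidine into the modified residue called diphthamide.

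Of 30 initiation and termination factor genes, 27, 2, 11 and 21 had a value, with medians of 0.73, -0.33, 1.09 and -0.06 on replicates 1 to 4. There were 5 on replicates 1, 3 and 4, of which 0 passed limma, as did 0% of all 725 genes. Of these 5, 1 was above the median on all 3 arrays, near the 19.2% of all 725 genes. This was SUI1, the eIF1 gene, at 3.36, 1.87 and 1.97 (mean 2.40 ± 0.83, SD, n = 3, limma, adjusted p = 0.386). TIF34, an eIF3 subunit gene, had 1.28, 1.28 and -0.76, and TIF3, the eIF4B gene, 2.49, -0.08 and -1.94. The elongation factor medians lay above those of both lists on each array, except that on replicate 2, with its sign as deposited, they would lie below. This difference was not tested.

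**Figure D4:**
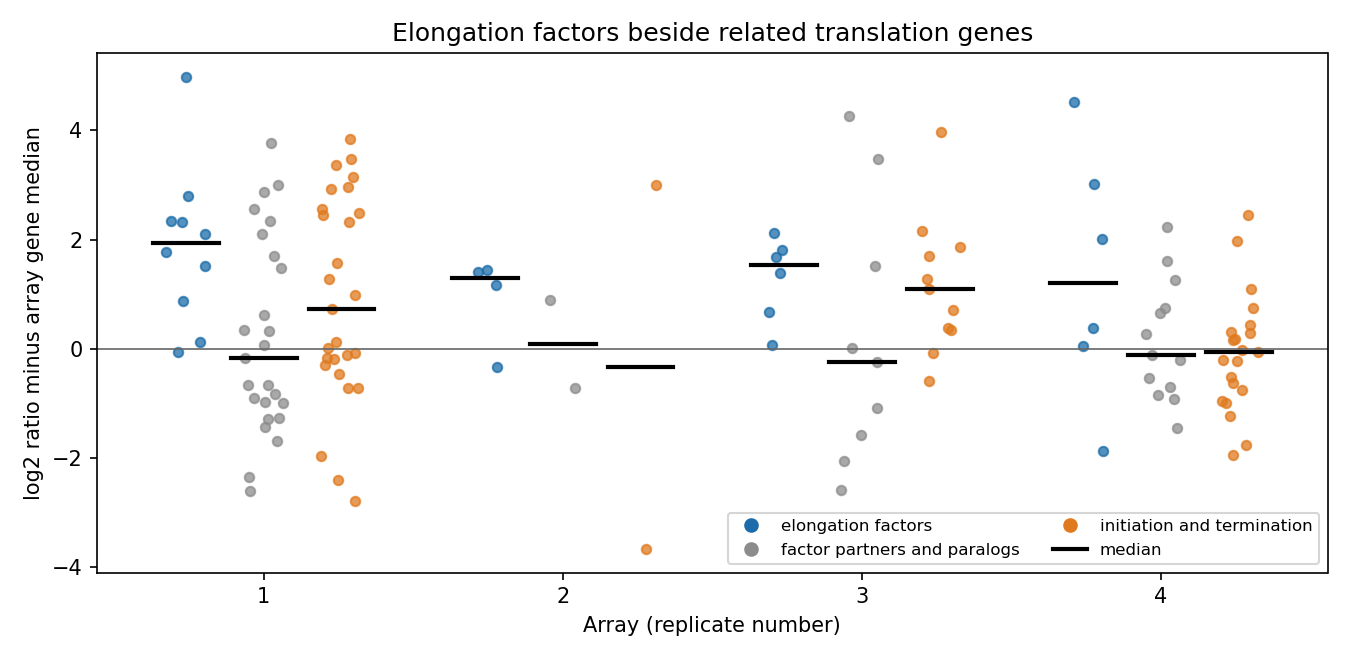
Log2 ratio minus the array's gene median (vertical axis) of the measured elongation factor genes, the genes of their paralogs, modifying enzymes and partners, and the initiation and termination factor genes, on each array (horizontal axis). Each point is a gene and each black line a median. The elongation factor medians (1.94, 1.29, 1.53 and 1.20) lie above the others, with the sign of replicate 2 turned, and the ranges overlap on every array.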

How the data were processed

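Each array was deposited as log10 ratios of its 2 channels, replicate 1 by itself and replicates 2 to 4 together. The base was read from the values: 10 to their power gave a fraction with a denominator up to 50 (tolerance 2e-08) for 0.259%, 4.68%, 15.5% and 12.0% of measured spots, and base 2 for 0%, 0%, 0.152% and 0.0222%. What the authors did before deposition (dyes, background, normalization) is not given in the sources used here, and spot medians of 0.386, -0.163, -0.251 and 0.643 (log10) show no common centring. Measured spots were 5800 of 7680 on replicate 1, and 1004, 4610 and 4498 of 12800 on replicates 2 to 4.

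Values were converted to log2, the sign of replicate 2 was turned by its channel labels, spots of a gene were averaged and each array was centred on its gene median, with no loess because no intensities are given. Symbols came from the platform annotation, checked through gene identifiers against RefSeq assembly R64, with 0 updates. The files name no build, so no coordinates are given. Among replicates 2 to 4, 1 repeated spot identifier was left out. Limma 3.58.1 in R 4.3.3 (lmFit, eBayes, intercept) was fitted to all genes with a value on every array used, p-values adjusted by Benjamini-Hochberg and 0.05 as threshold. It was tested on simulated data with the same spread for every gene and no shift by spot order. That does not show its power on these arrays. Precision is limited by the number of arrays. Alternatives were the sign of replicate 2, the arrays used, centring, scaling, quantile normalization, a dye term, runs of 400 spots, the spot summary and leaving out each array.

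The rule for named genes took every member, the 3 genes closest to each member measured on all 4 arrays, and at most 3 genes from each of 2 lists of related genes measured on replicates 1, 3 and 4, by their mean in size. The members, lists and alternatives were chosen with earlier results of these data known. The alternatives to the fit of replicates 1, 3 and 4 were chosen after the data were seen.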

Additional observations from a re-analysis of the deposited data

Results flagged for a closer look

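TEF2, one of the eEF1A genes, had 1 array far from the others. Its log2 ratios were 1.53, 1.44 and 1.81 on replicates 1, 2 and 3 and 4.53 on replicate 4. The gap between replicate 4 and the nearest of the others was 0.882 of the whole range, above Dixon's 95% critical value for 4 values. Chance alone passes this value in about 5% of groups, and 2 genes were checked, of which TEF1 did not pass (0.518). Both TEF2 spots on replicate 4 were high, at 4.37 and 4.68. The gap no longer passed in the settings added after seeing the data, at 0.810 of the range with runs of 400 neighbouring spots centred and 0.497 with replicate 2 as deposited.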

How the results depend on the processing

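Of 103 recomputed values, 96 kept their direction and their side of the threshold or stayed within the spread. Some of these could not change. Members have at most 2 spots on an array, so the median of their spots equals the mean. EFT1 and EFT2 have no value on replicate 2, so its sign does not alter their difference. The member median of replicate 2 was not recomputed with the sign as deposited. Limma called 0 genes in each of the 13 alternatives to the fit of replicates 2, 3 and 4 and in each of the 9 alternatives to that of replicates 1, 3 and 4. In the former, the mean of TEF1 ranged from 1.17 to 3.23 and that of TEF2 from 1.62 to 3.19 (limma, adjusted p from 0.379 to 0.994). With replicate 2 as deposited they were 1.17 and 1.63. In the latter, the means of TEF1, TEF2 and HYP2 ranged from 2.35 to 4.05, from 1.67 to 3.45 and from 2.07 to 3.14 (limma, smallest adjusted p = 0.148). The mean of TEF2 minus TEF1, at -0.39, turned to 0.64 on the second platform only, which is the same as without replicate 1, and to 0.10 with runs of 400 spots centred. Leaving out 1 array gave -1.02 to 0.64. The mean of EFT2 minus EFT1, at -0.01, turned to 0.71 on the second platform only, which leaves 1 array, and to 1.24 with runs centred. Leaving out 1 array gave -0.74 to 0.71. The member median on replicate 2 moved from 1.29 to 2.19 with runs centred, and that of replicate 4 was 0.38 with each pair averaged. Apart from the runs and arrays themselves, the cause was not tested. Both precipitates share an array, so each ratio is itself a comparison within an array. No pairing between arrays was possible, because the 4 arrays form 1 group and their numbers follow the accession order. No intensities were available here for a filter on dim spots.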
